A study of Mus musculus with 28 samples.

Results

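The genes followed here are 8 homeodomain transcription factors of heart and mesenchyme outside the HOX clusters: Nkx2-5, Isl1, Irx3, Irx4, Meis1, Meis2, Prrx1 and Prrx2. They were taken by gene symbol from the annotation of the array, out of 19938 genes that it names, and each is read by 1 probe set. Of the 8, 6 passed the filter on low signal that left 12211 genes to test. Isl1 and Irx4 did not pass and are described without a test. The arrays measured 28 cultures of mouse embryonic fibroblasts (MEFs) in a study of direct reprogramming of fibroblasts to cardiomyocyte-like cells.

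Each group is named by the initials of the factors that a lentivirus delivered under a tetracycline-responsive promoter. GMT (5 arrays) is GATA4, MEF2C and TBX5. NGMT (6 arrays) adds NKX2.5, HGMT (3 arrays) adds Hand2 and HNGMT (3 arrays) adds both. In DMT (4 arrays) MYOCD stands in place of GATA4, and DMNT (4 arrays) adds NKX2.5 to that. All these cultures also received the activator rtTA and a reporter in which a Troponin T promoter drives a calcium sensor and zeocin resistance. Doxycycline was given at 2 μg/mL. Zeocin at 300 μg/mL was applied for 7 days, and RNA was taken on day 21. The 3 control cultures, 0F, were MEFs with no factor, not transduced according to the protocol and also collected on day 21, although the source label names selected cells for all 28 samples. On the protocol's reading a comparison with 0F spans virus, medium, doxycycline and selection as well as the factors. Selection acts through the Troponin T promoter and so keeps cells in which that promoter is active. Array data come from whole cultures, in which fewer cells of a type and less RNA per cell cannot be told apart.

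Homeodomain proteins bind DNA through a helix-turn-helix fold of their shared domain. Nkx2-5 and Isl1 act early in the heart: Nkx2-5 partners GATA4 and TBX5 on cardiac promoters, and Isl1 marks progenitors of the second heart field. Irx3 and Irx4 are Iroquois factors of the ventricles, Irx3 in the fast conduction system and Irx4 in ventricular muscle. Meis1 and Meis2 belong to the TALE class, bind DNA together with Pbx and HOX proteins, and Meis1 restrains division of cardiomyocytes after birth. Prrx1 and Prrx2 are paired-related factors of limb, craniofacial and connective tissue mesenchyme, and Prrx1 is in wide use as a marker of fibroblasts.

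The deposited values are log2 signals whose distributions divide the arrays into 3 sets. The sets were found from the sorted values of each array and are not named in the labels. Set 1 holds all 0F arrays with GMT replicates 1 and 2 and NGMT replicates 1 to 3. Set 2 holds GMT replicates 3 to 5, NGMT replicates 4 to 6, all HGMT and HNGMT arrays and DMT replicates 1 to 3. Set 3 holds DMT replicate 4 and all 4 DMNT arrays. The array median lay between 6.68 and 6.75 in set 1, 6.86 and 6.95 in set 2, and 7.64 and 7.65 in set 3, so deposited levels of the 8 genes are compared here only inside a set. Direct differences, taken after quantile normalization and without a set term, pool arrays of different sets. The fit carries the set as a term. No HGMT, HNGMT, DMT or DMNT array shares a set with 0F, so those comparisons rest on GMT and NGMT, which occur in sets 1 and 2, and set 3 is tied to the rest by DMT replicate 4 alone. This assumes that sets differ by the same amount for a gene in every group. Where groups are said not to overlap inside a set, the share of all genes tested that did likewise was not counted.

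In the cells, the 0F arrays carried fibroblast markers as the label says. All 10 of a list of fibroblast markers lay above the array median on every array of the series, and the summed signal of the list in 0F was 47096 to 48057 on the linear scale. The 0F cultures also carried adipocyte markers, with all 8 measured markers above the array median and a summed signal of 39790 to 41172, against 1957 to 2215 in the GMT arrays of set 1. The list of 12 cardiomyocyte markers summed to 1183 to 1212 in 0F and to 17296 to 19046 in GMT of set 1. No marker can be said to be absent, since the lowest value among all probe sets is a log2 signal of 3.76.

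The promoters of Meis1, Meis2 and Prrx2, the 3 genes fitted lower with every combination than in 0F, are shown first, with that of Prrx1, the paralogue of Prrx2. Each is the stretch of 250 bases before an annotated RefSeq start on assembly GRCm38.p6, read 5′ to 3′ on the strand of the gene. Each of these stretches lies inside the gene coordinates given below, so the start used is not the outermost of the gene. Capitals mark CANNTG, the E-box that Hand2 and other helix-loop-helix factors bind, and AAGTG, a core of the NKX2-5 element, on either strand.

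Meis1, chr11:19018970-19019219, minus strand: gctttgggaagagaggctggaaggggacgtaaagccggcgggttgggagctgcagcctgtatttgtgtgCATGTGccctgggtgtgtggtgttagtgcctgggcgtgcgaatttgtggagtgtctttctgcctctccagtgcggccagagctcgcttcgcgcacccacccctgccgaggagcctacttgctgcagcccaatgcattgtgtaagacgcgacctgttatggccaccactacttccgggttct

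Meis2, chr2:116064620-116064869, minus strand: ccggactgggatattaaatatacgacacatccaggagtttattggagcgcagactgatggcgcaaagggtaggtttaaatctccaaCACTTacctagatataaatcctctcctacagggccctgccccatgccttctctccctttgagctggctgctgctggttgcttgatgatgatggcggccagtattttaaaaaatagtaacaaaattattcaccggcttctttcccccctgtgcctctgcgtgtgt

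Prrx1, chr1:163313651-163313900, minus strand: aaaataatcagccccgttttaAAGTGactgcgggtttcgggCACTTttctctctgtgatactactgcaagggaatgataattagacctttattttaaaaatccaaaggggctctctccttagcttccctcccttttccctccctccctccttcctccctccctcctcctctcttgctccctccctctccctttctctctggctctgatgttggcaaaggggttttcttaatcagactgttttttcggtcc

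Prrx2, chr2:30845117-30845366, plus strand: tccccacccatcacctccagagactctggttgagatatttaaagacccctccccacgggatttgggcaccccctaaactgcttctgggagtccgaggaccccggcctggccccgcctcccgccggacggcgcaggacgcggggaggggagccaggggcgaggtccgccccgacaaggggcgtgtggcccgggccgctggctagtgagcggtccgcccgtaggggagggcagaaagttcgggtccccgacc

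The Meis1 promoter held 1 CANNTG, which begins 181 bases before the start, and no AAGTG. The Meis2 promoter held 1 AAGTG, the Prrx1 promoter held 2, and neither held CANNTG. The Prrx2 promoter, with 70.0% G and C, held neither. Further motifs were searched on both strands: AGATAA for GATA factors, GGTGTG for T-box factors and the CArG box of SRF, the partner of MYOCD. Among the 8 promoters the only match to these was 1 GGTGTG in that of Meis1. Of the remaining promoters, those of Nkx2-5 and Isl1 held 1 CANNTG each, that of Irx3 held 1 AAGTG, and that of Irx4 held none of the 5 motifs. Over 32851 promoters of the same length, CANNTG was found in 66.2%, AAGTG in 40.7%, GGTGTG in 16.3%, AGATAA in 9.99% and the CArG box in 1.47%, and the median G and C content was 52.4%. A match is a run of letters and no sign of binding.

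Prrx2, of paired-related type, changed in more comparisons than any other of the 8 genes. It lies on chromosome 2 (30845064 to 30881251, GRCm38.p6). In set 1 its log2 signal was 10.27, 10.17 and 10.19 in 0F, 9.36 and 9.22 in GMT, and 9.73, 9.63 and 9.48 in NGMT. The 3 groups did not overlap: 0F was high, GMT low and NGMT between them. In set 2 the signal was 9.98, 9.95 and 9.93 in GMT, 10.10, 10.16 and 10.04 in NGMT, 10.28, 10.40 and 10.40 in HGMT, 10.36, 10.36 and 10.34 in HNGMT, and 9.93, 9.68 and 9.73 in DMT. Every HGMT and HNGMT array lay above every NGMT array, every NGMT array above every GMT array, and every GMT array above every DMT array, DMT replicate 1 only just. In set 3 it was 10.20 in DMT and 10.12, 10.08, 10.23 and 10.06 in DMNT, which overlap.

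**Figure D1:**
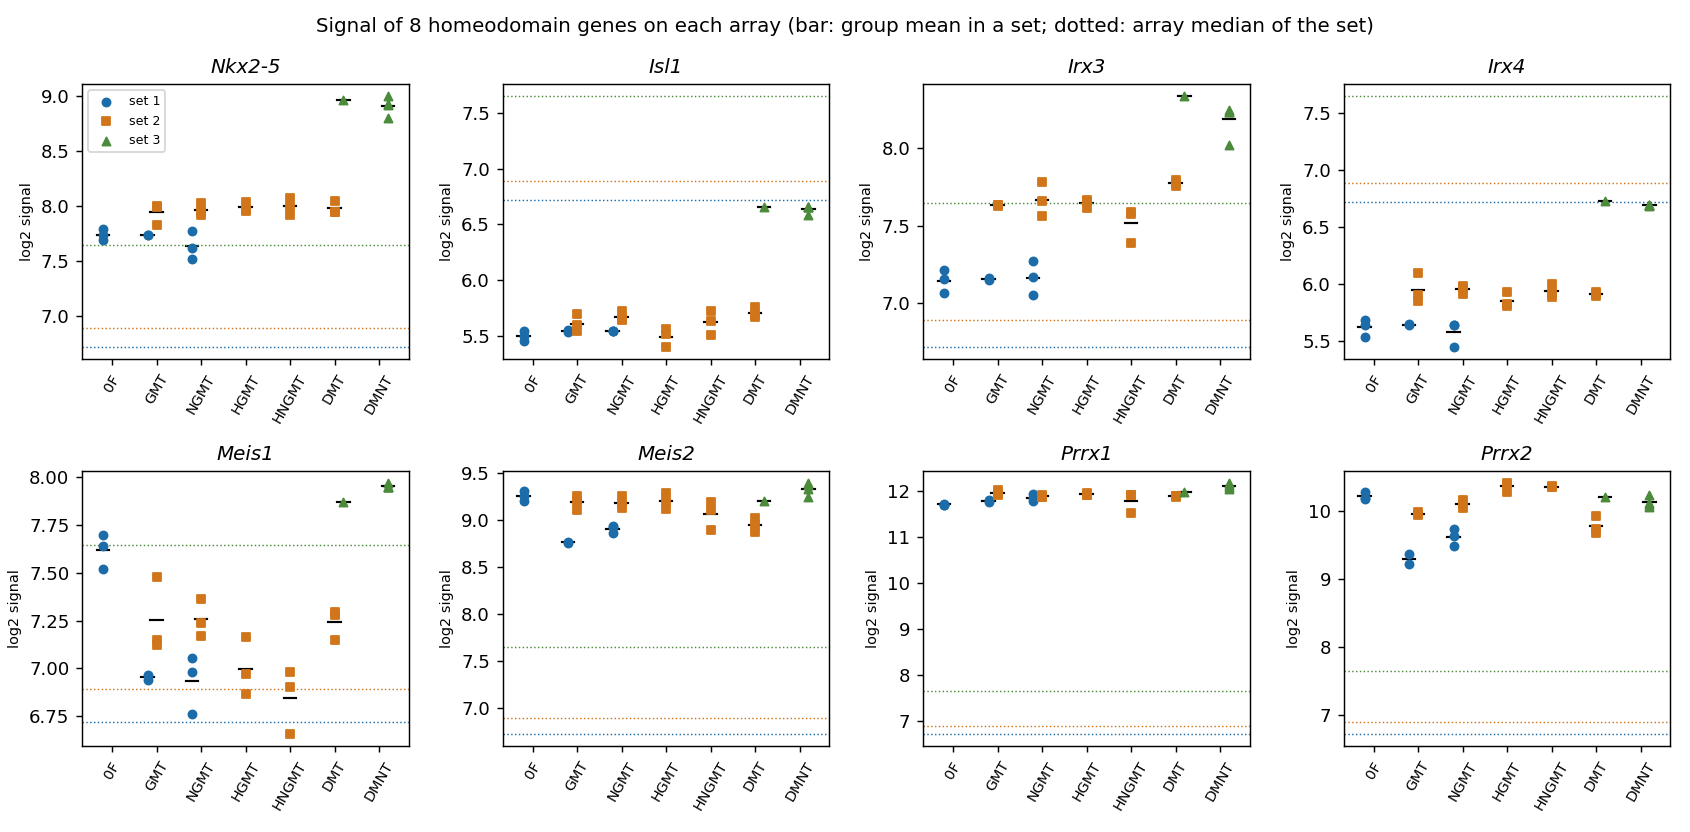
Log2 signal (vertical axis) of the 8 genes on each of the 28 arrays, by group (horizontal axis). Circles, squares and triangles are arrays of sets 1, 2 and 3, black bars are group means inside a set and dotted lines the mean array median of each set. Prrx2 was high in 0F and low in GMT of set 1, and in set 2 highest in HGMT and HNGMT, while Isl1 and Irx4 lay below the array median on all arrays.

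Against 0F, Prrx2 fell by 0.86 ± 0.07 (SE) in GMT and by 0.64 ± 0.06 in NGMT on the log2 scale (limma, adjusted p = 6.2e-11 and 5.0e-09). Inside set 1 alone the differences were -0.92 and -0.60 (limma, adjusted p = 3.5e-06 and 3.4e-05). In DMT it fell by 1.00 ± 0.09 and in DMNT by 1.08 ± 0.13 (adjusted p = 3.2e-10 and 1.6e-07). As direct differences of arrays after quantile normalization, with no set term, these 4 values were -0.63, -0.45, -0.61 and -0.74, all called. The fitted differences of HGMT and HNGMT from 0F were both -0.42 ± 0.09 (adjusted p = 2.1e-04 and 1.9e-04), but the direct differences were 0.00088 and -0.01 (adjusted p = 0.996 and 0.942), so whether Prrx2 differed between Hand2 cultures and 0F depends on how the sets are joined. Only GMT and NGMT arrays join those sets, and in them Prrx2 was higher in set 2 than in set 1 by 0.41 ± 0.05 after quantile normalization, as 72.2% of the genes tested differed between the sets in either direction.

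Adding Hand2 went with more Prrx2. HGMT exceeded GMT by 0.44 ± 0.06 (limma, adjusted p = 1.0e-05), and 7.44% of the genes tested had a difference at least as large. Inside set 2 the difference was 0.40 (adjusted p = 3.7e-04), the direct difference was 0.63 (adjusted p = 5.3e-04), and leaving out any 1 of the 8 GMT and HGMT arrays gave 0.42 to 0.49, called each time. HNGMT exceeded NGMT by 0.21 ± 0.06 (adjusted p = 0.0141), and 24.6% of the genes tested had a difference at least as large. It was 0.25 inside set 2 (adjusted p = 0.0126), with a direct difference of 0.44 (adjusted p = 0.00948). Without NGMT replicate 6 the fitted difference was 0.18 (adjusted p = 0.0532), the one array of the 9 whose omission ended the call. With the title number as a replicate block in the fit, HNGMT against NGMT was 0.10 and not called (limma, adjusted p = 0.546). HGMT against GMT was then 0.37 and called (adjusted p = 0.0035).

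Adding NKX2.5 to GMT also went with more Prrx2, by a smaller amount that fewer checks upheld. NGMT exceeded GMT by 0.23 ± 0.05 (limma, adjusted p = 0.0224), with 0.33 in set 1 (adjusted p = 0.0360). In set 2 it was 0.15 and not called (adjusted p = 0.9997), with arrays that did not overlap. The direct difference was 0.18 (adjusted p = 1.00). Without GMT replicate 1, GMT replicate 2, NGMT replicate 1 or NGMT replicate 2 the adjusted p was 0.0752, 0.191, 0.0623 and 0.0624. In the presence of Hand2, NKX2.5 moved Prrx2 by -0.01 ± 0.07 (95% interval -0.15 to 0.13, adjusted p = 0.963). The difference between the effects of NKX2.5 with and without Hand2 was -0.23 ± 0.09, with an unadjusted p of 0.0121 and an adjusted p of 0.219, and was not called.

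MYOCD in place of GATA4 left Prrx2 at -0.14 ± 0.06 in DMT against GMT (limma, adjusted p = 0.169), with all 3 DMT arrays of set 2 below the GMT arrays, and the direct difference was 0.02. It was called only without DMT replicate 1 (-0.21, adjusted p = 0.0290). DMNT differed from DMT by -0.08 ± 0.09 (95% interval -0.27 to 0.11). DMNT lay below NGMT by -0.44 ± 0.11 (limma, adjusted p = 0.0160). That call held with each of the 10 DMNT and NGMT arrays left out. The direct difference was also called (-0.28, adjusted p = 0.0306), as were 44.4% of all genes tested. DMNT shares no set with NGMT and is joined to it through DMT, of which no array was left out. In the order of fitted levels Prrx2 ran from 0F through HGMT and HNGMT, NGMT, GMT and DMT to DMNT. The places of 0F against HGMT and HNGMT rest on the set term, since the direct differences there are 0.00088 and -0.01. The direct difference of DMT from GMT, 0.02, pools arrays of different sets. Inside set 2, with no set term, DMT differed from GMT by -0.18 (limma, adjusted p = 0.0894, not called). Of the neighbours in that order, HGMT and HNGMT, and DMT and DMNT, have 95% intervals that include 0, while that of DMT against GMT was -0.27 to -0.0028 without passing the adjusted threshold.

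Prrx1, the paralogue on chromosome 1 (163245119 to 163315145), moved little. In set 1 its log2 signal was 11.73, 11.71 and 11.71 in 0F, 11.81 and 11.77 in GMT, and 11.85, 11.94 and 11.78 in NGMT, so that each array with factors lay slightly above each 0F array. In set 2 it was 11.95, 11.92 and 12.03 in GMT, 11.88, 11.93 and 11.88 in NGMT, 11.96, 11.91 and 11.93 in HGMT, and 11.89, 11.91 and 11.87 in DMT. HNGMT had 11.52, 11.92 and 11.91, with replicate 1 apart from the others. In set 3 it was 11.98 in DMT and 12.10, 12.14, 12.17 and 12.05 in DMNT.

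Prrx1 was called in none of the 13 comparisons of groups with limma, and at an unadjusted p under 0.05 in HNGMT against NGMT and against HGMT alone. Against 0F it differed by 0.12 ± 0.07 in GMT (95% interval -0.02 to 0.26, adjusted p = 0.133) and by 0.11 ± 0.06 in NGMT (adjusted p = 0.135). Within set 1 the NGMT difference was 0.14 and called (adjusted p = 0.0088). HNGMT against NGMT gave -0.14 ± 0.06 (adjusted p = 0.0923), which became -0.01 without HNGMT replicate 1. It was called at -0.21 without HNGMT replicate 2 or replicate 3 (adjusted p = 0.0178 and 0.0199), and leaving out either also gave a call against HGMT (-0.22 and -0.21). In DMNT the direction against 0F depended on the scaling: the fit gave 0.22 ± 0.13 (adjusted p = 0.182) and the direct difference -0.28 (adjusted p = 0.0120).

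Meis1, on chromosome 11 (18880428 to 19019651), was lower with every combination and lowest with Hand2. In set 1 its log2 signal was 7.697, 7.52 and 7.64 in 0F, 6.97 and 6.94 in GMT, and 7.05, 6.98 and 6.76 in NGMT, with 0F above all others. In set 2 it was 7.12, 7.15 and 7.48 in GMT, 7.36, 7.24 and 7.17 in NGMT, 7.16, 6.97 and 6.87 in HGMT, 6.66, 6.90 and 6.98 in HNGMT, and 7.28, 7.30 and 7.15 in DMT. HNGMT lay below NGMT without overlap, whereas HGMT and GMT overlapped. Meis1 was near the array median: it lay below that median on 1 HGMT array and 2 HNGMT arrays and above it on the other 25. In set 3 the signal was 7.87 in DMT and 7.95, 7.97, 7.95 and 7.95 in DMNT.

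Against 0F, Meis1 fell by 0.67 ± 0.09 in GMT, 0.68 ± 0.09 in NGMT, 0.69 ± 0.12 in DMT and 0.61 ± 0.17 in DMNT (limma, adjusted p = 1.0e-06, 3.5e-07, 2.0e-05 and 0.0066). With Hand2 it fell by 0.93 ± 0.12 in HGMT and by 1.08 ± 0.12 in HNGMT (adjusted p = 3.1e-07 and 2.9e-08). The direct differences were -0.60, -0.63, -0.58 and -0.56 without Hand2 and -0.83 and -0.96 with it, all called. Each of these 6 calls held with each array of its own groups, of GMT and of NGMT left out in turn. For DMNT no DMT array was left out, although DMNT is joined to 0F through DMT.

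The step with Hand2 was called in both backgrounds, but in neither with the title number as a replicate block in the fit. The blocked values were -0.36 in HNGMT against NGMT and -0.20 in HGMT against GMT (limma, adjusted p = 0.0985 and 0.284). HNGMT lay below NGMT by -0.40 ± 0.09 (limma, adjusted p = 0.00137), with -0.41 inside set 2 (adjusted p = 0.0188) and a direct difference of -0.33 (adjusted p = 0.00599). All 9 fits that left out 1 array kept the call, with -0.47 to -0.31. HGMT lay below GMT by -0.26 ± 0.09 (adjusted p = 0.0328), which was not called inside set 2 (-0.25, adjusted p = 0.141), as a direct difference (-0.22, adjusted p = 0.0677), or without GMT replicate 5 (-0.18), HGMT replicate 2 (-0.24) or HGMT replicate 3 (-0.19). The difference between both steps equals that between the effects of NKX2.5 with and without Hand2, -0.15 ± 0.12 (adjusted p = 0.509), and was not called. NKX2.5 added without Hand2 moved Meis1 by -0.01 ± 0.07 in NGMT against GMT (95% interval -0.15 to 0.14), and MYOCD in place of GATA4 by -0.01 ± 0.09 in DMT against GMT (95% interval -0.20 to 0.17), with a direct difference of 0.03.

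Meis2, on chromosome 2 (115861264 to 116067537), was also lower with every combination, by less. In set 1 its log2 signal was 9.31, 9.26 and 9.21 in 0F, 8.76 and 8.77 in GMT, and 8.92, 8.94 and 8.87 in NGMT, without overlap of the 3 groups. In set 2 it was 9.11, 9.21 and 9.25 in GMT, 9.25, 9.13 and 9.17 in NGMT, 9.29, 9.12 and 9.19 in HGMT, 8.89, 9.19 and 9.11 in HNGMT, and 8.94, 9.02 and 8.88 in DMT. The DMT arrays lay below all GMT, NGMT and HGMT arrays, and these and HNGMT overlapped. In set 3 it was 9.21 in DMT and 9.39, 9.33, 9.37 and 9.25 in DMNT.

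Against 0F, Meis2 fell by 0.44 ± 0.07 in GMT, 0.38 ± 0.06 in NGMT, 0.40 ± 0.08 in HGMT, 0.54 ± 0.08 in HNGMT, 0.65 ± 0.08 in DMT and 0.52 ± 0.12 in DMNT (limma, adjusted p = 2.4e-06, 8.4e-06, 2.2e-04, 6.0e-06, 2.4e-07 and 0.0011). The direct differences ran from -0.64 in DMNT to -0.25 in HGMT, all called. Unlike Meis1, Meis2 was not called with Hand2: HGMT against GMT gave 0.04 ± 0.06 (95% interval -0.08 to 0.17) and HNGMT against NGMT -0.15 ± 0.06 (adjusted p = 0.0632). The latter was -0.07 without HNGMT replicate 1, and was called without NGMT replicate 5 (-0.18, adjusted p = 0.0434) or HNGMT replicate 2 (-0.22, adjusted p = 0.0137). A test of the Hand2 step in Meis1 against that in Meis2 was not made. With MYOCD in place of GATA4, DMT lay below GMT by -0.21 ± 0.06 (adjusted p = 0.0179). That call was lost inside set 2 (-0.24, adjusted p = 0.0522), as a direct difference (-0.20, adjusted p = 0.0618), and without DMT replicate 1 (-0.21), DMT replicate 3 (-0.17), GMT replicate 4 (-0.19) or GMT replicate 5 (-0.18).

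Nkx2-5, on chromosome 17 (26838664 to 26844988), was called in none of the 13 comparisons, with no unadjusted p under 0.05. In set 1 its log2 signal was 7.73, 7.79 and 7.69 in 0F, 7.73 and 7.73 in GMT, and 7.77, 7.52 and 7.62 in NGMT. In set 2 it ran from 7.83 to 8.07 over 15 arrays, and the NGMT arrays (7.95, 7.92 and 8.02) and HNGMT arrays (7.99, 7.92 and 8.07) overlapped the GMT arrays (7.999, 7.99 and 7.83) and HGMT arrays (7.97, 8.04 and 7.96). In set 3 it was 8.97 in DMT and 8.92, 8.92, 8.80 and 8.996 in DMNT. NGMT against GMT gave -0.03 ± 0.05 (limma, 95% interval -0.13 to 0.07), HNGMT against HGMT 0.01 ± 0.06 (-0.12 to 0.14) and DMNT against DMT -0.06 ± 0.09 (-0.24 to 0.13).

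Signal of the Nkx2-5 probe set was thus not higher where NKX2.5 had been delivered. No source used here says whether that probe set reads the delivered sequence, so it checks neither delivery nor the labels. Against 0F the fitted differences ran from -0.09 in DMNT to -0.02 in HNGMT. Their sign turned with the scaling in HGMT, HNGMT and DMT, where the direct differences were 0.02, 0.05 and 0.14 and not called, and in DMNT, where they were 0.37 against 0F (adjusted p = 0.00147) and 0.44 against NGMT (adjusted p = 1.2e-04). Set 3 holds no 0F and no NGMT array.

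Irx3, on chromosome 8 (91798511 to 91801654), likewise passed the threshold in none of the 13 comparisons. In set 1 its log2 signal was 7.22, 7.07 and 7.16 in 0F, 7.15 and 7.16 in GMT, and 7.17, 7.27 and 7.05 in NGMT, all overlapping. In set 2 it was 7.63, 7.64 and 7.63 in GMT, 7.56, 7.66 and 7.78 in NGMT, 7.67, 7.61 and 7.66 in HGMT, 7.39, 7.59 and 7.58 in HNGMT, and 7.75, 7.77 and 7.80 in DMT. In set 3 it was 8.33 in DMT and 8.23, 8.02, 8.25 and 8.23 in DMNT. DMT lay above GMT without overlap, by 0.14 ± 0.06 (limma, unadjusted p = 0.0390, adjusted p = 0.150), and the difference of HNGMT from NGMT was -0.14 ± 0.06 (adjusted p = 0.0839), called without NGMT replicate 4 (-0.18, adjusted p = 0.0496) and 0.02 as a direct difference. As a direct difference Irx3 was higher than in 0F by 0.41 in DMT (adjusted p = 0.0018) and 0.28 in HGMT (adjusted p = 0.0403). The fitted values were 0.14 ± 0.08 and 0.01 ± 0.08, and Irx3 in GMT and NGMT was 0.32 ± 0.05 higher in set 2 than in set 1 after quantile normalization.

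Isl1, on chromosome 13 (116298270 to 116309688), and Irx4, on the same chromosome (73259589 to 73269622), lay below the array median on all 28 arrays. For Isl1 the log2 signal ran from 5.45 to 5.56 in set 1, from 5.40 to 5.76 in set 2 and from 6.58 to 6.66 in set 3. For Irx4 it ran from 5.45 to 5.69 in set 1, from 5.81 to 6.10 in set 2 and from 6.68 to 6.73 in set 3. Groups overlapped in every pair compared inside sets 1 and 2 for both genes. Neither the second heart field marker nor the ventricular factor therefore gave a signal above the middle of the array with any combination, which does not show that their RNA was absent.

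Counted over the 8 genes, 3 of the 6 tested, Meis1, Meis2 and Prrx2, were called in each of the 6 comparisons with 0F, and all 3 were lower. The background of such calls was high: 60.1% of all genes tested were called in GMT against 0F (24.1% lower), 60.8% in NGMT (24.2% lower), 51.1% in HGMT (21.2% lower), 49.7% in HNGMT (23.2% lower), 56.4% in DMT (21.8% lower) and 41.4% in DMNT (15% lower). The share of members called in either direction, 3 of 6, is thus near the background or below it, except in DMNT, where it is above. The 6 comparisons share their 0F arrays. The median log2 difference of the 6 genes from 0F was -0.24 in GMT and -0.34 in DMT, beside 0.05 and 0.06 over all genes tested. Inside set 1, 3 members were called in GMT against 0F, where 60.4% of genes were called, and 4 in NGMT against 0F, where 61.9% were.

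Among combinations, 1 of 6 members was called in NGMT against GMT, Prrx2 (higher), where 1.63% of all genes were called and 0.688% were higher. In HGMT against GMT and in HNGMT against NGMT 2 of 6 were called, Prrx2 (higher) and Meis1 (lower), against 26.7% and 31.7% of all genes. In DMT against GMT 1 was called, Meis2 (lower), against 18.6% of genes (8.75% lower), and in DMNT against NGMT 1, Prrx2 (lower), against 6.27% (2.67% lower). No member was called by limma in HNGMT against HGMT (0.622% of genes) or DMNT against DMT (0.0737%), where 1 and 0 members had an unadjusted p under 0.05. None was called in the difference of NKX2.5 effects with and without Hand2 (0% of genes) or between DMT and GMT (0.00819%), where 2 and 1 members had an unadjusted p under 0.05.

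Inside set 2 alone the same counts were 0 in NGMT against GMT (0.00819% of genes), 1 in HGMT against GMT (17%), 2 in HNGMT against NGMT (17.6%), 0 in HNGMT against HGMT (0.00819%) and 0 in DMT against GMT (12.9%). In set 1, 1 member was called in NGMT against GMT (5.52% of genes), and in set 3, 1 in DMNT against DMT (5.04%), Meis1 by 0.08, where 3 of the 4 DMNT arrays hold the same value. As direct differences, 3 members were called in GMT against 0F (52.6% of genes), 3 in NGMT (51%), 3 in HGMT (55%), 2 in HNGMT (52.9%), 4 in DMT (60.3%) and 5 in DMNT (63.8%). Meis1 and Meis2 were lower in all of these, and Prrx2 was lower in all but HGMT and HNGMT, where it was not called. The other calls were Irx3 (higher) in HGMT and DMT, and Nkx2-5 (higher) and Prrx1 (lower) in DMNT. The direct counts were 0 in NGMT against GMT (0.0328%), 1 in HGMT against GMT (16.6%), 2 in HNGMT against NGMT (21.6%), 0 in HNGMT against HGMT (0%), 0 in DMT against GMT (13.2%), 0 in DMNT against DMT (5.89%) and 4 in DMNT against NGMT (44.4%).

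**Figure D2:**
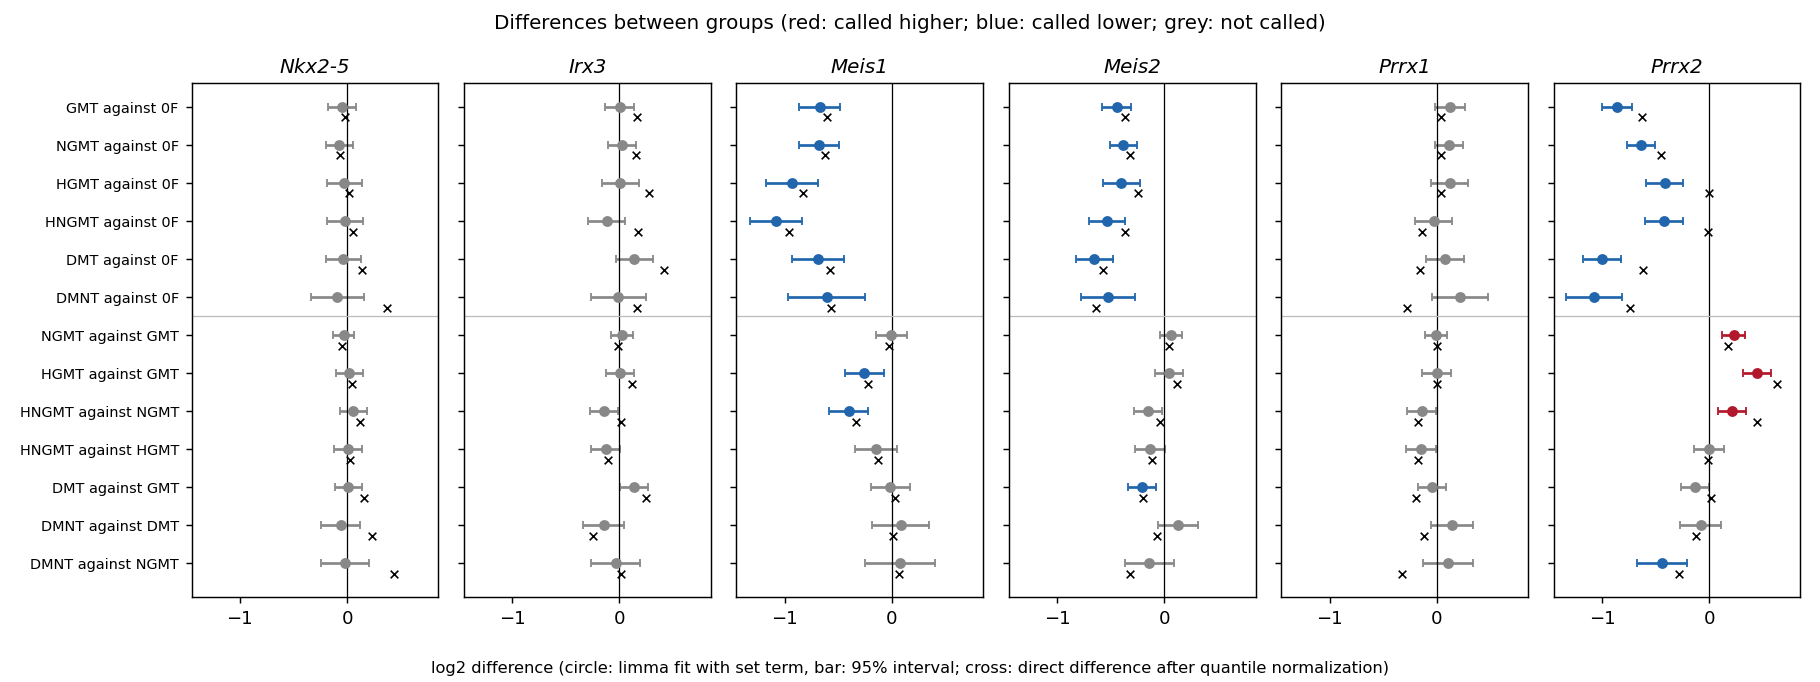
Log2 differences (horizontal axis) of the 6 tested genes in 13 comparisons of groups (vertical axis). Circles are values of the limma fit with the set term and bars their 95% intervals, in red where called higher, blue where called lower and grey where not called, and crosses are direct differences after quantile normalization. Meis1, Meis2 and Prrx2 are blue in all 6 comparisons with 0F, but the crosses of Prrx2 in HGMT and HNGMT lie at 0.00088 and -0.01.

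Other cell types moved with these comparisons. Marker counts stand beside 60.1% of all genes tested called in GMT against 0F (24.1% lower), 26.7% in HGMT against GMT and 18.6% in DMT against GMT. From 0F to GMT all 8 adipocyte markers tested fell (median -5.41), 7 of 8 macrophage markers fell (median -2.24) and 8 of 10 fibroblast markers fell while 2 rose (median -0.45). The summed macrophage signal was 5197 to 7180 in 0F and 1269 to 1437 in GMT of set 1, and the fibroblast sum 47096 to 48057 against 28480 to 30979. In GMT of set 2, on the scale of that set, the macrophage sum was 1275 to 1522 and the fibroblast sum 45742 to 54938. Of 7 epithelial and mesothelial markers 5 rose (median 2.15), with a sum of 716 to 833 in 0F and 5663 to 6157 in GMT of set 1. On the scale of set 2, that sum was 1486 to 1599 in GMT. From GMT to HGMT all 8 adipocyte markers rose (median 1.18), as did 5 of 10 fibroblast and 3 of 4 endothelial markers, while 5 of 11 cardiomyocyte markers fell and 1 rose, and 3 of 7 smooth muscle markers fell and 1 rose. The cardiomyocyte sum in set 2 was 16191 to 17312 in GMT, 10217 to 10762 in HGMT, 15834 to 18262 in NGMT and 9693 to 10832 in HNGMT. In set 2 the adipocyte sum was 3320 to 4835 in GMT, 8823 to 11204 in HGMT, 4165 to 5524 in NGMT and 1845 to 2269 in DMT. In HNGMT it was 11972, 7431 and 6123 in replicates 1 to 3, the macrophage sum 3609, 2848 and 1280, and the fibroblast sum 50656, 56256 and 56140. HNGMT replicate 1, lowest of its group in Meis1, Meis2, Prrx1 and Irx3, thus had the highest adipocyte and macrophage sums and the lowest fibroblast sum. From GMT to DMT 6 of 7 smooth muscle and 4 of 5 skeletal muscle markers rose, and the smooth muscle sum was 5968 to 6105 in GMT and 18305 to 20674 in DMT of set 2. The part of these cell types in the differences of Prrx2, Meis1 and Meis2 was not tested.

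Prrx2 and Meis1 lay apart from GMT in different ways. With each array set against the GMT mean of its own set, the HGMT and HNGMT arrays had Prrx2 above that mean and Meis1 below it, whereas the 0F arrays had both above it. Over the 28 arrays, centred inside each set, Pearson's r was 0.69 between Meis2 and Prrx2, 0.67 between Meis1 and Meis2, 0.26 between Meis1 and Prrx2 and -0.29 between Prrx1 and Prrx2. These values describe arrays that share groups and scaling.

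**Figure D3:**
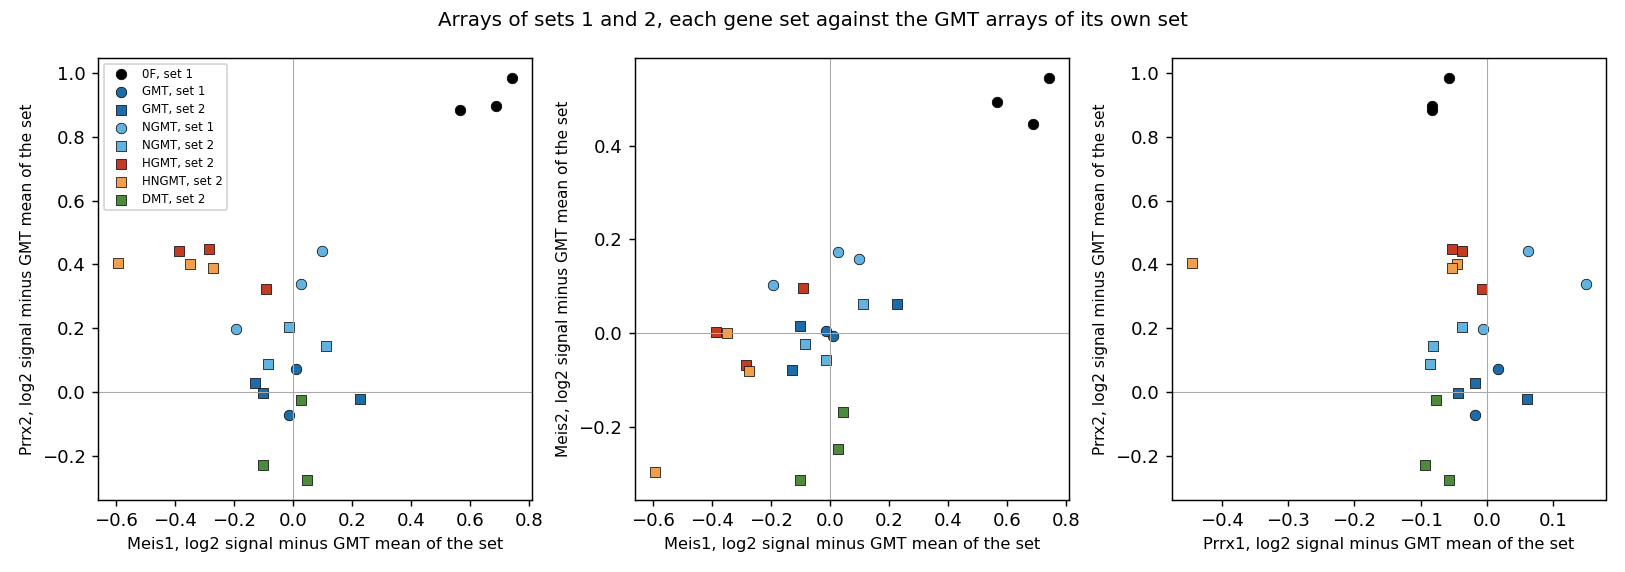
Each point is 1 array of set 1 (circles) or set 2 (squares), as log2 signal minus the mean of the GMT arrays of its set, for Prrx2 against Meis1, Meis2 against Meis1 and Prrx2 against Prrx1. The 0F arrays stand at upper right in the first and second panels, the HGMT and HNGMT arrays at upper left in the first, and DMT arrays low on the Meis2 axis with HNGMT replicate 1, which stands at far left in the third.

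By the same correlation, the tested genes most like Prrx2 were Islr (r = 0.96), which encodes a secreted protein of mesenchymal cells, Slc1a3 (0.96), a glutamate transporter, and Asxl3 (0.96). Those most like Meis1 were Hoxc8 (0.92), Pomt1 (0.92) and Arl14ep (0.92), and those most like Meis2 were Anpep (0.92), Ebf3 (0.91) and Cpxm1 (0.91). For Prrx1 they were Rptor (0.92), Cnot3 (0.91) and Man2a2 (0.90). The likeness was weaker for Irx3, with Copg1 (0.74), Nudt17 (0.73) and Gnb4 (0.72), and for Nkx2-5 the list was 1700008J07Rik (0.87), Krtap17-1 (0.86) and Urad (0.86).

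The relatives of each gene were read from lists. Over all genes tested, 60.1% were called in GMT against 0F (24.1% lower) and 26.7% in HGMT against GMT. The share was 31.7% in HNGMT against NGMT, 18.6% in DMT against GMT and 1.63% in NGMT against GMT. Whether the count of any list differed from these shares was not tested. Of 14 other TALE genes 12 were tested, and in GMT against 0F 2 were higher and 4 lower, with a median of 0.07 beside 0.05 over all genes. Tgif1, a TALE repressor, rose by 1.15 ± 0.07, Mkx, a tendon factor, fell by 0.69 ± 0.09, and Irx5, the Iroquois neighbour of Irx3, fell by 0.50 ± 0.08 (limma, adjusted p = 5.5e-13, 2.0e-07 and 8.1e-06). In HGMT against GMT 4 were higher and 1 lower, with Irx1 at 0.43 ± 0.08, Mkx at 0.40 ± 0.08 and Pknox2 at 0.37 ± 0.09, and all 3 were called as direct differences too. In HNGMT against NGMT 3 were higher and 2 lower, with Irx1 at 0.47 ± 0.08. None was called in NGMT against GMT, and in DMT against GMT 2 were higher, among them Mkx (0.46 ± 0.08), and 1 lower.

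Partners of Meis proteins and cell cycle inhibitors gave 2 higher and 3 lower of 9 tested in GMT against 0F, with a median of 0.04. The inhibitor Cdkn1c fell by 1.31 ± 0.06, the inhibitor Cdkn1b fell by 1.18 ± 0.08, and Cdkn2b rose by 0.86 ± 0.07 (limma, adjusted p = 6.0e-15, 3.6e-12 and 5.3e-11). In HGMT against GMT 4 were higher and none lower, with Cdkn1b at 0.35 ± 0.08, Cdkn1c at 0.34 ± 0.06 and Pbx3, a Meis partner, at 0.31 ± 0.06, and the list's median was 0.15 beside -0.01 over all genes. Pbx3 was also higher in DMT than in GMT, by 0.26 ± 0.06, the 1 call of the list there. In HNGMT against NGMT 2 were higher, among them Cdkn1c by 0.40 ± 0.06, and 1 was lower, Pbx2 (-0.14 ± 0.05), with a direct difference of 0.02.

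Fibroblast and mesenchyme genes that accompany Prrx1 were lower on balance: 17 of 27 tested fell and 7 rose in GMT against 0F, with a median of -0.38. Eln, the elastin gene, fell by 3.03 ± 0.15, Postn, a matrix protein of activated fibroblasts, fell by 2.54 ± 0.19 and Col1a2, a chain of type I collagen, fell by 1.48 ± 0.12 (limma, adjusted p = 1.4e-14, 3.3e-11 and 9.9e-11). The direct difference of Col1a2 was -0.96. With Hand2, 7 of the 27 were higher and 1 lower in HGMT against GMT, with a median of 0.12. Wt1, a factor of mesothelium and epicardium, was higher by 1.46 ± 0.09, Fbln1 by 0.76 ± 0.11 and Postn by 0.54 ± 0.18 (0.99 as a direct difference). In HNGMT against NGMT 3 were higher and 3 lower. In NGMT against GMT Thy1 rose by 0.26 ± 0.06 and Twist2 fell by 0.34 ± 0.07, neither called as a direct difference. In DMT against GMT 3 rose and 7 fell, with Fbln1 at -1.51 ± 0.11.

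Other paired-type homeodomain genes gave no rise and 3 falls of 5 tested in GMT against 0F (median -0.28), namely Alx4 (-0.49 ± 0.07), Shox2 (-0.31 ± 0.11) and Gsc (-0.28 ± 0.06), of which Gsc was not called as a direct difference and Shox2 was -0.75. Shox2, a limb and sinoatrial factor, was lower with Hand2, by -0.33 ± 0.10 in HGMT against GMT and -0.43 ± 0.10 in HNGMT against NGMT (limma, adjusted p = 0.0146 and 0.0021), with direct differences of -0.64 and -0.81. That is the opposite direction to Prrx2 in the same arrays.

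For the NK-like relatives of Nkx2-5, 3 of 10 tested were higher and 2 lower in GMT against 0F (median -0.01). Nkx2-9 rose by 1.67 ± 0.14 and Msx2 by 0.97 ± 0.06 (0.62 as a direct difference), and Nkx3-2, a factor of axial cartilage, fell by 0.64 ± 0.09 but not as a direct difference (-0.20, adjusted p = 0.411). None was called in NGMT against GMT, and 2 were higher in HGMT against GMT, Nkx3-2 (0.44 ± 0.09) and Hopx (0.21 ± 0.06). Their direct differences were 0.70 and 0.43, that of Hopx not called (adjusted p = 0.0555). Counting Hopx as NK-like was a choice of the list, and Hopx is also on the list of genes that depend on Nkx2-5. Of genes that depend on Nkx2-5 in heart, 11 of 16 tested were higher and 3 lower in GMT against 0F, with a median of 0.78, while Nkx2-5 itself was not called (-0.04 ± 0.06). That list includes Gata4, Mef2c and Tbx5, the factors delivered in GMT. Whether their probe sets read the delivered sequences is not known, so the count may include delivered RNA. Ankrd1, a stretch-responsive protein of the sarcomere, rose by 6.09 ± 0.13, Actc1, cardiac actin, by 3.97 ± 0.20 and Smpx by 3.74 ± 0.18. Where NKX2.5 was added to GMT 2 rose and 2 fell. Nppa, the atrial natriuretic peptide, rose by 2.99 ± 0.09, Nppb by 0.73 ± 0.11, and Ryr2, the calcium release channel, fell by 0.84 ± 0.12 (limma, adjusted p = 1.0e-16, 0.0011 and 6.6e-04), of which Nppa alone was called as a direct difference.

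Around Isl1, 1 of 7 tested LIM homeodomain genes and cofactors was higher and 1 lower in GMT against 0F (median 0.01). Ldb2, a cofactor that binds LIM domains, fell by 4.56 ± 0.13 and Lhx9 rose by 0.62 ± 0.10. Of 15 second heart field genes 4 rose and 6 fell (median 0.03), with Eya1 at -2.26 ± 0.15, Fgf10 at -1.07 ± 0.16 and Gata6 at -0.85 ± 0.10. This list, too, includes the delivered factors Gata4 and Mef2c. In HGMT against GMT 5 rose and 2 fell. Hcn4, the pacemaker channel, was higher by 0.85 ± 0.10 and Tbx3, a repressor of the conduction system, lower by -0.60 ± 0.07 (limma, adjusted p = 5.5e-07 and 6.7e-07), both called as direct differences. With MYOCD in place of GATA4 Hcn4 was higher by 1.42 ± 0.10.

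Genes linked to the Iroquois factors in heart gave 3 rises and 2 falls of 9 tested in GMT against 0F (median -0.03). Cdh13, T-cadherin, rose by 3.86 ± 0.11, Gja5, the gap junction protein of atria and fast conduction fibres, by 3.24 ± 0.15 (1.96 as a direct difference), and Hey2, a ventricular repressor, fell by 0.86 ± 0.10. In DMT against GMT 5 rose and 1 fell (median 0.20), with Myh6, the alpha myosin heavy chain, at 2.47 ± 0.11, Kcnip2, a subunit of the transient outward potassium channel, at 0.94 ± 0.07 and Hey2 at 0.42 ± 0.10, all 3 called as direct differences, Hey2 at 0.75. None of the 9 was called in NGMT against GMT. In HGMT against GMT 3 rose and 3 fell.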

How the data were processed

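Biotin-labelled total RNA of 28 cultures, described in the labels as independent biological replicates, was hybridized to single-channel arrays. The authors deposited 1 table of log2 signal for 35556 probe sets. MAS5 is the only tool named in the submitters' processing notes, and no source used here says how signals were summarized and scaled. The annotation pairs 21789 probe sets with 1 symbol, 1621 with several and 12146 with none, and only the first were named. All 8 members matched RefSeq (GRCm38.p6), which gave coordinates and promoters. Where a gene has several probe sets, that with the highest mean was used. A gene was tested if its signal exceeded the median of the array on 3 or more arrays.

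Sets of arrays were found by clustering the mean distance between sorted values (at most 0.0486 inside a set, at least 0.135 between sets). Differences were fitted with limma 3.58.1 in R 4.3.3 (lmFit, contrasts, eBayes with trend), with group and set as terms over all 28 arrays (19 residual degrees of freedom). Each comparison was tested two-sided, with Benjamini-Hochberg adjustment over its 12211 genes, and an adjusted p under 0.05 made a call. The precision is limited by the 3 to 6 arrays of a group. In sets 1, 2 and 3, 25.1%, 23.1% and 70.4% of tested genes hold the same value on at least 2 arrays, which can make their spread too small.

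The alternatives were quantile normalization of all arrays, with the set term and without it (the direct difference), fits inside each set, no filter or a filter at 14 arrays, the mean over probe sets, the title number as a replicate block, and each array left out. Genes outside the 8 were named by rule: up to 3 called genes of largest change in each list and comparison, or 1 of smallest p, and for each tested member the 3 genes with the highest correlation over arrays. The members and lists were chosen with earlier results of these data known.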

Additional observations from a re-analysis of the deposited data

Results flagged for a closer look

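In DMNT, the only group with 4 arrays inside 1 set, 1 array stood apart from the other 3 by the largest gap relative to the range in 4 of the 8 genes. Chance marks about 1 in 20 groups of this size in this way. The Irx3 log2 signal was 8.02 in DMNT replicate 2 and 8.23 to 8.25 in the others. For Isl1 it was 6.58 in replicate 3 and 6.66 in the others, for Irx4 6.68 in replicate 3 and 6.69 in the others, and for Meis1 7.97 in replicate 2 and 7.95 in the others. In these last 3 genes the other 3 arrays hold exactly equal values, so that any other value stands apart. In set 3, 42.2% of the genes tested hold the same value on at least 3 of the 5 arrays, against 9.02% in set 1 and 9.08% in set 2.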

How the results depend on the processing

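Quantile normalization with the set term, no filter, a filter at 14 arrays and the mean over probe sets each left all 90 values of single genes on their side of the threshold with their direction. The direct difference without a set term left 78. It changed the count of members called against 0F to 2 in HNGMT, 4 in DMT and 5 in DMNT. Among combinations the count became 0 in NGMT against GMT, 1 in HGMT against GMT, 0 in DMT against GMT and 4 in DMNT against NGMT. The direct difference reversed Prrx2 in HGMT against 0F (0.00088), Nkx2-5 in DMNT against 0F (0.37) and NGMT (0.44), and Prrx1 in DMNT against 0F (-0.28) and NGMT (-0.32), for which the cause was not tested. Fits inside set 2, with fewer arrays, called 0 members in NGMT against GMT, 1 in HGMT against GMT and 0 in DMT against GMT, and inside set 3 1 in DMNT against DMT. With each array left out in turn, 0 to 1 members were called in NGMT against GMT, 1 to 2 in HGMT against GMT, 1 to 4 in HNGMT against NGMT, 0 to 2 in HNGMT against HGMT and 0 to 1 in DMT against GMT, and 3 in every comparison with 0F. Of the values of single genes, 1137 then kept their side, 9 became calls and 12 ceased to be. The title numbers are not stated to pair cultures. For arrays of the same number, r of their deviations was -0.26 to 0.41 over 21 pairs, 7 above 0.1. For arrays of unlike number it was -0.41 to 0.41 over 90 pairs, 24 above 0.1. Pairing by order inside a set was not tested, so these values do not show that cultures were unpaired. 3 of 22 arrays correlated best with their own number. With the number as a replicate block, Meis1 in DMNT against 0F was no longer called (-0.54, adjusted p = 0.104), and 1 member was called in HGMT against GMT, where Meis1 was -0.20 (adjusted p = 0.284). None (0) was called in HNGMT against NGMT, where Meis1 was -0.36 (adjusted p = 0.0985) and Prrx2 0.10 (adjusted p = 0.546), and 0 in DMT against GMT, where Meis2 was -0.25 (adjusted p = 0.0875). With the block, calls over all genes went from 3865 to 1401 in HNGMT against NGMT, 3258 to 2088 in HGMT against GMT, 766 to 339 in DMNT against NGMT, 76 to 19 in HNGMT against HGMT and 9 to 0 in DMNT against DMT. As direct differences the calls over all genes went from 199 to 4 in NGMT against GMT, 3258 to 2024 in HGMT against GMT, 76 to 0 in HNGMT against HGMT, 766 to 5416 in DMNT against NGMT, 9 to 719 in DMNT against DMT and 5060 to 7787 in DMNT against 0F. Without DMT replicate 4 no comparison of DMNT has a value. No DMT array was left out in DMNT against 0F or NGMT, which are joined through DMT. For a typical gene the 95% interval reached 0.14 to either side of the value in GMT against 0F, 0.11 in NGMT against GMT and 0.20 in DMNT against DMT, and background subtraction could not be varied in values already summarized.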
